A study of Homo sapiens with 20 samples.

Results

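The genes described here are 9 genes of the NRF2 pathway and glutathione defence, NFE2L2, KEAP1, GCLC, GCLM, NQO1, HMOX1, TXNRD1, SLC7A11 and SRXN1. They were taken by symbol from a table of read counts of 58870 genes, in which each had 1 row, together with the 52 of 54563 consensus FRA1 peaks that overlapped these genes or the 50 kb to either side of them. RNA-seq covered 12 samples of the human melanoma cell lines A375 and 1205Lu, treated with non-targeting siRNAs (si-NT) or with siRNAs against FOSL1 (si-FOSL1), with 3 replicates in each group. FOSL1 encodes the AP-1 transcription factor FRA1. Cut&Run, which counts the DNA fragments released by a nuclease tethered to an antibody, covered 8 samples, 3 with a FRA1 antibody and 1 with IgG in each line, with no siRNA named for them. Both are established lines, and the time after siRNA delivery is not given in the sources used here. The labels do not say that replicates were separate cultures, so that p-values measure only the spread between these samples.

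NRF2, the product of NFE2L2, is a transcription factor that is held by KEAP1 and degraded in unstressed cells. When KEAP1 is modified by electrophiles or oxidants, NRF2 accumulates, pairs with small MAF proteins and binds antioxidant response elements, whose core overlaps the sequence bound by AP-1 factors such as FRA1. Its known targets make glutathione, the main thiol of the cell, and keep thioredoxin and peroxiredoxins reduced. Since NRF2 is controlled mainly through its protein, the mRNA level of NFE2L2 is not a measure of its activity.

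On GRCh38, with gene bodies from GENCODE v44, NFE2L2 (ENSG00000116044.16) lies at chr2:177218667-177392756 on the minus strand and KEAP1 (ENSG00000079999.14) at chr19:10486125-10503558 on the minus strand. GCLC (ENSG00000001084.12) lies at chr6:53497341-53616970 and GCLM (ENSG00000023909.10) at chr1:93885199-93909456, both on the minus strand. NQO1 (ENSG00000181019.13) lies at chr16:69706996-69726668 on the minus strand, HMOX1 (ENSG00000100292.17) at chr22:35380361-35394214 on the plus strand and TXNRD1 (ENSG00000198431.16) at chr12:104215779-104350307 on the plus strand. SLC7A11 (ENSG00000151012.13) lies at chr4:138164097-138242349 and SRXN1 (ENSG00000271303.1) at chr20:646615-653200, both on the minus strand. Distances below are from the start of the canonical transcript.

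Totals of counts assigned to genes lay between 20573412 and 32518903 per RNA-seq sample. Levels are given below in CPM, read counts relative to library size, on sizes scaled by TMM, a trimmed mean over genes. FOSL1 itself had a mean of 414.6 ± 8.33 CPM (SD, n = 3) with si-NT and 25.8 ± 0.185 CPM (SD, n = 3) with si-FOSL1 in A375 cells, and 484.6 ± 7.34 and 68.5 ± 3.02 CPM (SD, n = 3) in 1205Lu cells. The log2 fold change of FOSL1, si-FOSL1 over si-NT, was -4.01 in A375 and -2.84 in 1205Lu, and this difference between the lines was 1.19 ± 0.0443 (SE, edgeR's quasi-likelihood test, adjusted p = 1.2e-16). Of 10 melanocyte and melanoma markers, 4 in A375 (MITF, SOX10, S100A1 and PAX3) and 5 in 1205Lu (the same with S100B) had at least 1 CPM in all samples of the line. Their summed level was 115.2 to 123.7 CPM in A375 and 1327 to 1602 CPM in 1205Lu. Among markers of other cell types, KRT8 and KRT18 brought the epithelial sum to 1466 to 1600 CPM in A375, and the fibroblast sum (COL1A1, PDGFRA, PDGFRB and 4 others) was 35.0 to 37.6 CPM with si-NT and 73.7 to 76.0 CPM with si-FOSL1 in that line. In 1205Lu the melanocyte sum was 1565 to 1602 CPM with si-NT and 1327 to 1362 CPM with si-FOSL1, and the fibroblast sum 197.8 to 206.8 CPM. The immune sum, mostly CD68, went from 77.9 to 79.9 CPM to 56.5 to 61.1 CPM in A375 and from 17.2 to 18.4 CPM to 7.14 to 8.51 CPM in 1205Lu, and the endothelial sum was at most 2.73 CPM. The part of these shifts in the values below was not tested.

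Upon FRA1 silencing, 8 of the 9 genes passed an adjusted p under 0.05 in each line, mostly with small changes. In A375 cells 6 rose (background of all 16899 tested genes: 25.7%) and 2 fell (background: 25.1%). In 1205Lu cells 7 rose (background of all 17136 tested genes: 20.6%) and 1 fell (background: 19.9%). NQO1 rose and GCLM fell in both lines. In neither line did any of the 9 genes also pass an absolute log2 fold change of 1, a rule that 5.56% of tested genes met in A375 and 3.13% in 1205Lu. The si-NT and si-FOSL1 samples did not overlap for 7 of the 9 genes in A375 (background: 56.8%) and for 8 of the 9 in 1205Lu (background: 49.3%). The median log2 fold change over the 9 genes was 0.28 in A375 and 0.39 in 1205Lu, beside -0.003 and -0.005 over all tested genes. In bulk RNA, fewer cells with a transcript and less of it per cell cannot be told apart.

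**Figure D1:**
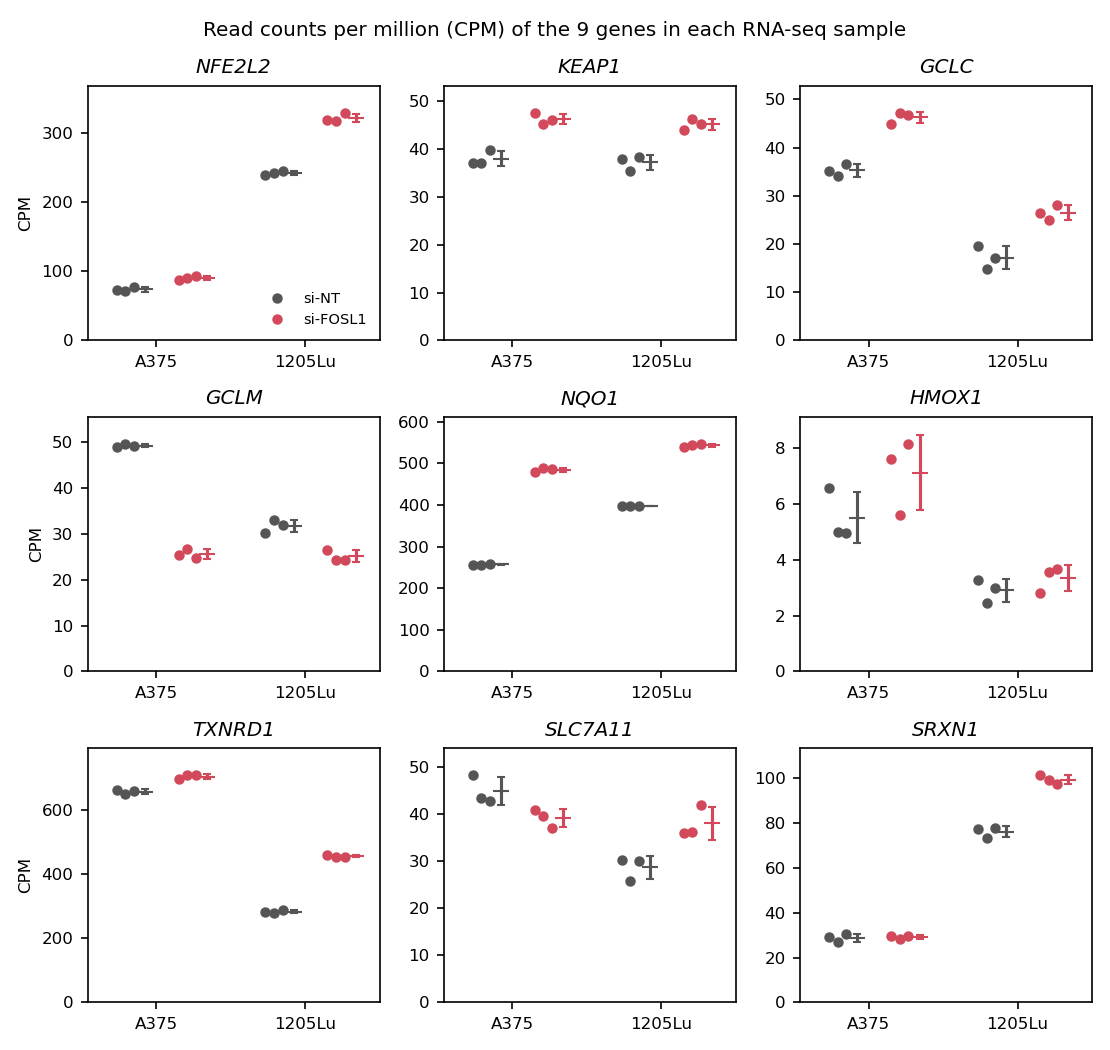
Level of each of the 9 genes in CPM (linear axis from 0) in each RNA-seq sample, with si-NT in grey and si-FOSL1 in red, by cell line. Dots are single samples, and the bar beside them is the mean with its SD (n = 3). NQO1 is higher and GCLM lower with si-FOSL1 in both lines, and SLC7A11 is lower in A375 and higher in 1205Lu.

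Among the regulators, NFE2L2 was measured at 73.4, 71.3 and 77.9 CPM with si-NT and at 87.7, 90.4 and 93.6 CPM with si-FOSL1 in A375 cells. In 1205Lu cells it was at 240.0, 241.9 and 245.1 CPM with si-NT and at 319.4, 318.2 and 329.1 CPM with si-FOSL1. Every silenced sample lay above every control sample of its line. The log2 fold change was 0.28 ± 0.0400 in A375 (SE, edgeR adjusted p = 2.4e-06) and 0.39 ± 0.0219 in 1205Lu (adjusted p = 1.2e-11).

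KEAP1, the substrate adaptor that brings NRF2 to a CUL3 ubiquitin ligase, was at 37.1, 37.2 and 39.7 CPM with si-NT and at 47.4, 45.2 and 46.1 CPM with si-FOSL1 in A375 cells. The 1205Lu samples were at 37.9, 35.5 and 38.2 CPM with si-NT and at 44.04, 46.2 and 45.1 CPM with si-FOSL1. The repressor thus rose together with the transcription factor it binds, and its groups did not overlap in either line. Its log2 fold change was 0.28 ± 0.0503 in A375 (SE, edgeR adjusted p = 5.3e-05) and 0.26 ± 0.0503 in 1205Lu (adjusted p = 2.8e-04). The 95% interval of the difference in response between the lines was -0.15 to 0.13 on the log2 scale.

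GCLC and GCLM encode the catalytic and the modifier subunit of glutamate-cysteine ligase, the rate-limiting enzyme of glutathione synthesis, and they moved in opposite directions. GCLC was at 35.2, 34.1 and 36.7 CPM with si-NT and at 45.0, 47.1 and 46.8 CPM with si-FOSL1 in A375 cells. In 1205Lu cells GCLC was at 19.6, 14.8 and 17.1 CPM with si-NT and at 26.5, 24.9 and 28.1 CPM with si-FOSL1. All silenced samples were above all controls of the same line. GCLC rose by a log2 fold change of 0.38 ± 0.0507 in A375 (SE, edgeR adjusted p = 7.8e-07) and 0.60 ± 0.0869 in 1205Lu (adjusted p = 1.1e-05).

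GCLM was at 48.9, 49.5 and 49.1 CPM with si-NT and at 25.4, 26.6 and 24.6 CPM with si-FOSL1 in A375 cells. In 1205Lu cells GCLM was at 30.3, 33.0 and 31.8 CPM with si-NT and at 26.5, 24.4 and 24.2 CPM with si-FOSL1. The modifier subunit was lower in every silenced sample of both lines, and the silenced groups of the lines lay at about the same level. In A375 cells GCLM decreased by 48.25%, with a log2 fold change of -0.95 ± 0.0524 (SE, edgeR adjusted p = 2.1e-13). In 1205Lu cells it decreased by 21.8%, with a log2 fold change of -0.35 ± 0.0633 (adjusted p = 1.2e-04).

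SLC7A11, the cystine transporter subunit of system xc- that supplies cysteine for glutathione, changed in opposite directions in the 2 lines. It was at 48.2, 43.4 and 42.8 CPM with si-NT and at 40.8, 39.5 and 37.00 CPM with si-FOSL1 in A375 cells. In 1205Lu cells it was at 30.2, 25.7 and 30.02 CPM with si-NT and at 35.9, 36.1 and 42.0 CPM with si-FOSL1. The groups did not overlap in either line. The log2 fold change was -0.20 ± 0.0554 in A375 (SE, edgeR adjusted p = 0.0043) and 0.39 ± 0.0705 in 1205Lu (adjusted p = 1.6e-04). Without replicate 1 of A375 si-NT, its highest sample, the A375 value was -0.15 with an edgeR adjusted p = 0.055.

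NQO1, a quinone reductase and the usual reporter of NRF2 activity, was at 256.3, 255.9 and 259.4 CPM with si-NT and at 478.6, 488.5 and 485.4 CPM with si-FOSL1 in A375 cells. The 1205Lu cells were at 397.9, 397.1 and 396.9 CPM with si-NT and at 540.2, 543.2 and 546.0 CPM with si-FOSL1. Among the 9 genes it had the largest rise in A375 cells. The log2 fold change was 0.91 ± 0.0206 in A375 (SE, edgeR adjusted p = 1.2e-20), a rise of 87.55%, and 0.43 ± 0.0173 in 1205Lu (adjusted p = 7.7e-14), a rise of 35.1%. In A375 the absolute log2 fold change of NQO1 was above that of 92.0% of tested genes, and that of GCLM above 92.9%.

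HMOX1, heme oxygenase 1, had the fewest counts of the 9 genes, at 6.56, 4.99 and 4.97 CPM with si-NT and at 7.63, 5.59 and 8.14 CPM with si-FOSL1 in A375 cells. Its 1205Lu samples were at 3.26, 2.45 and 3.00 CPM with si-NT and at 2.83, 3.57 and 3.68 CPM with si-FOSL1, or 55 to 98 counts per sample. The 2 groups overlapped in both lines. In A375 the log2 fold change was 0.37 ± 0.153 (SE) and passed narrowly, at an edgeR adjusted p = 0.046. It did not pass in 6 of the 11 alternatives tried, with an adjusted p = 0.06 in DESeq2, 0.14 or 0.16 without si-NT replicate 2 or 3, and 0.16 or 0.2 without si-FOSL1 replicate 1 or 3. In 1205Lu it was 0.19 ± 0.196 (edgeR adjusted p = 0.49), with a 95% interval of -0.20 to 0.57, so that a rise or a small fall was within the error at this depth.

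TXNRD1, the cytosolic thioredoxin reductase, was at 663.5, 649.3 and 659.1 CPM with si-NT and at 695.6, 708.8 and 708.5 CPM with si-FOSL1 in A375 cells. In 1205Lu cells it was at 281.5, 278.8 and 287.8 CPM with si-NT and at 458.9, 454.6 and 454.9 CPM with si-FOSL1. It was the gene with the largest rise of the 9 in 1205Lu, whereas the change in A375 was small although the groups did not overlap. The log2 fold change was 0.67 ± 0.0202 in 1205Lu (SE, edgeR adjusted p = 1.0e-15), a rise of 59.45%, and 0.09 ± 0.0172 in A375 (adjusted p = 6.2e-05), a rise of 6.75%.

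SRXN1, sulfiredoxin, which repairs over-oxidised peroxiredoxins, was at 29.00, 26.9 and 30.7 CPM with si-NT and at 29.6, 28.2 and 29.7 CPM with si-FOSL1 in A375 cells. Its levels in 1205Lu lay at 77.6, 73.3 and 77.8 CPM with si-NT and at 101.4, 99.5 and 97.6 CPM with si-FOSL1. The A375 samples overlapped and the 1205Lu samples did not. The log2 fold change was 0.37 ± 0.0377 in 1205Lu (SE, edgeR adjusted p = 1.2e-07) and 0.01 ± 0.0616 in A375 (adjusted p = 0.90), with a 95% interval of -0.11 to 0.13. Its row can share reads with the overlapping readthrough gene ENSG00000270299, as SLC7A11, GCLC and NQO1 can with antisense genes, since the strand setting of the counting is not given in the sources used here.

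The response to FRA1 silencing differed between the lines for 6 of the 9 genes in the test of the interaction of line and treatment (background of 19452 tested genes: 31.9%). Given as the response in 1205Lu minus that in A375, the difference was 0.61 ± 0.0803 for GCLM, 0.60 ± 0.0973 for SLC7A11 and 0.59 ± 0.0267 for TXNRD1 (log2, SE). For SRXN1 it was 0.37 ± 0.0681, and for NFE2L2 0.13 ± 0.0447. NQO1 was the only one of the 6 with a negative difference, at -0.46 ± 0.0267, its rise being smaller in 1205Lu, while the positive difference of GCLM was that of a smaller fall. The edgeR adjusted p was 1.2e-06 for GCLM, 2.5e-05 for SLC7A11, 5.3e-15 for TXNRD1, 1.3e-04 for SRXN1 and 6.1e-13 for NQO1. NFE2L2 passed at an edgeR adjusted p = 0.033, which rose to 0.2 with upper-quartile normalization and to 0.057, 0.1 and 0.084 without 1205Lu si-FOSL1 replicate 3, A375 si-NT replicate 3 and A375 si-FOSL1 replicate 1. For GCLC the difference of 0.22 ± 0.102 did not pass (edgeR adjusted p = 0.11, 95% interval 0.02 to 0.42), and it passed at 0.0099 without 1205Lu si-NT replicate 1. For HMOX1 it was -0.17 ± 0.258 (edgeR adjusted p = 0.67). FOSL1 itself was lowered less in 1205Lu, as given above, and the part of that in these differences was not tested.

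**Figure D2:**
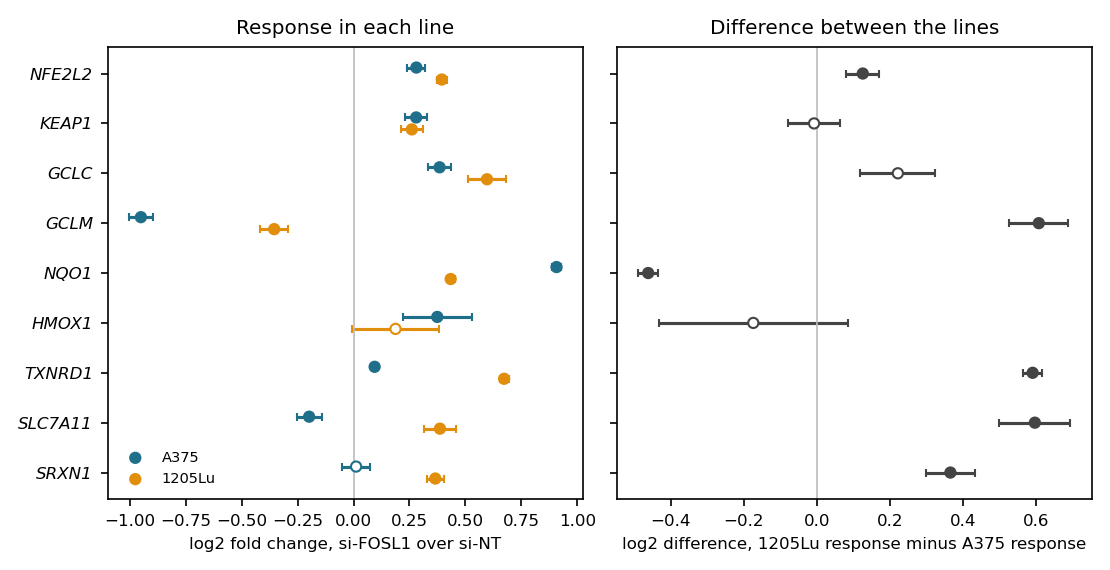
Left, log2 fold change of each gene, si-FOSL1 over si-NT, in A375 (blue) and 1205Lu (orange), and right, the response in 1205Lu minus that in A375. Bars are the SE of the edgeR fit, and filled points have an adjusted p under 0.05. GCLM lies left of 0 in both lines, SLC7A11 on opposite sides, and NQO1 is the only filled point left of 0 in the right panel, at -0.46.

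With si-NT, 8 of the 9 genes differed between the lines (background of 18050 tested genes: 78.0%), and 3 of them with an absolute log2 fold change over 1 (background: 40.2%). These control samples also serve in the silencing comparisons above. Relative to A375, 1205Lu cells had more NFE2L2 (log2 fold change 1.78 ± 0.0332, SE), SRXN1 (1.476 ± 0.0509) and NQO1 (0.70 ± 0.0214). They had less TXNRD1 (-1.14 ± 0.0201), GCLC (-0.96 ± 0.0803), HMOX1 (-0.84 ± 0.186), SLC7A11 (-0.57 ± 0.0647) and GCLM (-0.56 ± 0.0499). The edgeR adjusted p of these 8 genes ranged from 1.4e-20 for TXNRD1 to 4.4e-04 for HMOX1. KEAP1 did not pass, at 0.04 ± 0.0532 (edgeR adjusted p = 0.46, 95% interval -0.06 to 0.15). The line with more NFE2L2 mRNA had less mRNA of 5 of the other 8 genes, which hold the glutathione synthesis enzymes, the cystine transporter, thioredoxin reductase and heme oxygenase.

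Divided by the length of the canonical transcript, the highest si-NT level in A375 was that of TXNRD1 (170.3 ± 1.88 CPM per kb, SD, n = 3), followed by NQO1 (102.0 ± 0.750 CPM per kb) and NFE2L2 (30.35 ± 1.38 CPM per kb). KEAP1, SRXN1, GCLM and GCLC lay between 14.8 and 9.33 CPM per kb, and SLC7A11 (4.65 CPM per kb) and HMOX1 (3.54 CPM per kb) were lowest. In 1205Lu with si-NT the order of levels per kb began with NQO1 (157.6 ± 0.230 CPM per kb), NFE2L2 (99.1 ± 1.06 CPM per kb) and TXNRD1 (73.2 ± 1.204 CPM per kb) and ended again with SLC7A11 (2.97 CPM per kb) and HMOX1 (1.87 CPM per kb). None of the 8 pairs of neighbours in either order overlapped between their 3 samples. Genes with long alternative transcripts, such as NFE2L2 and GCLC, are less well described by 1 length.

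The genes also differed in how they varied together. Over the 12 samples, on the log2 CPM scale after subtraction of each line's mean, Pearson's r was -0.99 between GCLM and NQO1, 0.95 between NFE2L2 and KEAP1 and 0.95 between TXNRD1 and SRXN1. SLC7A11 had an r of 0.74 with SRXN1 and 0.01 with NQO1. These values describe 12 points that share their libraries and the split by siRNA. Among 10311 genes whose mean count was 100 or more in A375 and in 1205Lu, the genes most like NQO1 were MALAT1 (r = 0.998), FNDC3B (0.997) and GOLGB1 (0.997). Those most like GCLM were DGKZ (0.995), PTPRF (0.993) and INTS1 (0.993), those most like TXNRD1 were NFAT5 (0.995), LONRF2 (0.992) and ZNF664 (0.992), and those most like NFE2L2 were YTHDF3 (0.995), RESF1 (0.992) and ERRFI1 (0.991). For KEAP1 they were GGPS1 (0.979), LRP6 (0.977) and SARS (0.976), and for GCLC INTS13 (0.977), PDGFRB (0.976) and RPS6KA3 (0.975). For SRXN1 they were CSNK2A1 (0.972), PLEKHA8 (0.969) and WASL (0.968), for SLC7A11 SNX33 (0.952), MAPK1IP1L (0.952) and DIAPH2 (0.943), and for HMOX1 POFUT2 (0.895), POMT2 (0.894) and XPC (0.868). No member of the 9 was among the 3 genes most like another.

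Around these genes, 8 lists of the wider pathway were counted with the same rule, and several of the 9 genes are themselves in the lists. The counts are to be read against the shares of all tested genes given above, 25.7% higher and 25.1% lower in A375 and 20.6% and 19.9% in 1205Lu. Among 15 regulators of NRF2, 5 rose and 5 fell in A375 (median log2 fold change -0.06), and 9 rose and 2 fell in 1205Lu (median 0.32). MAFF, a small MAF protein that pairs with NRF2, fell in A375 (log2 fold change -0.76 ± 0.0978, SE) and rose in 1205Lu (0.68 ± 0.0813). NFE2L1, the related factor NRF1, rose in A375 (0.32 ± 0.0258) and fell in 1205Lu (-0.19 ± 0.0244). BACH2, a repressor at the same DNA elements, rose in 1205Lu (0.77 ± 0.122) and had -0.28 ± 0.289 in A375, while DPP3, which binds KEAP1, fell in 1205Lu (-0.21 ± 0.0670) and had 0.10 ± 0.0597 in A375. The edgeR adjusted p was 5.8e-07 and 8.7e-07 for MAFF and 2.7e-10 and 2.7e-06 for NFE2L1 in A375 and 1205Lu, and in 1205Lu 3.0e-05 for BACH2 and 0.016 for DPP3. The DPP3 call was lost without 1205Lu si-NT replicate 1 (0.083) or 2 (0.055), without si-FOSL1 replicate 3 (0.063) and with no filter on low counts (0.055).

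Of 33 genes of glutathione synthesis and use with a usable row, 31 were tested in A375, where 14 rose and 7 fell (median log2 fold change 0.18). In 1205Lu 7 of 29 rose and 6 fell (median -0.002), near the shares of all tested genes. GPX8, a peroxidase of the endoplasmic reticulum, fell in both lines, by 1.28 ± 0.0494 in A375 and by 1.56 ± 0.0787 in 1205Lu on the log2 scale (SE). SLC3A2, the partner subunit of SLC7A11, moved in the same directions as SLC7A11, with -0.14 ± 0.0438 in A375 and 0.69 ± 0.0325 in 1205Lu. GPX3, a secreted peroxidase, rose in A375 (0.69 ± 0.151) and had too few counts to be tested in 1205Lu. The edgeR adjusted p was 2.4e-16 and 3.0e-12 for GPX8 and 0.011 and 1.1e-12 for SLC3A2 in A375 and 1205Lu, and 4.6e-04 for GPX3. The SLC3A2 call in A375 was lost without si-FOSL1 replicate 3 (edgeR adjusted p = 0.071).

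In the thioredoxin system, 13 of 20 genes rose and 3 fell in A375 (median log2 fold change 0.18), and 9 rose and 3 fell in 1205Lu (median 0.16). The sestrins SESN3 and SESN1, stress-induced antioxidant proteins, rose in both lines, SESN3 with 1.36 ± 0.130 in A375 and 0.87 ± 0.0246 in 1205Lu and SESN1 with 0.92 ± 0.0670 and 0.90 ± 0.0927 (log2, SE). MSRB3, a methionine sulfoxide reductase, fell in both, with -0.53 ± 0.0789 in A375 and -0.76 ± 0.0902 in 1205Lu. Among the 15 found genes of NADPH supply, which fuels both systems, 7 rose and 3 fell of 15 in A375 (median 0.09) and 5 rose and 5 fell of 14 in 1205Lu (median -0.001). IDH1, cytosolic isocitrate dehydrogenase, rose by 1.13 ± 0.0380 in A375 and 0.53 ± 0.0483 in 1205Lu, and the folate enzymes MTHFD2 and MTHFD1 fell in both lines. MTHFD2 had -0.80 ± 0.0359 in A375 and -0.49 ± 0.0468 in 1205Lu, and MTHFD1 had -0.30 ± 0.0281 and -0.61 ± 0.0385. The largest edgeR adjusted p among these values was 4.1e-06, for MSRB3 in A375.

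The genes of quinone and carbonyl detoxification, to which NQO1 belongs, had the largest share of rises in A375, where 15 of 19 rose and 1 fell with a median log2 fold change of 0.57. In 1205Lu 6 of 16 rose and 1 fell, with a median of 0.015. In A375 6 of these genes rose with a log2 fold change over 1. They were the aldo-keto reductases AKR1B10 (1.84 ± 0.428, SE), AKR1C1 (1.71 ± 0.294), AKR1C2 (1.19 ± 0.215) and AKR1C3 (1.19 ± 0.147), the epoxide hydrolase EPHX1 (1.105 ± 0.0585) and OSGIN1 (1.33 ± 0.210). The aldo-keto reductases were scarce in A375, from 0.364 CPM for AKR1B10 to 3.65 CPM for AKR1C3 with si-NT. AKR1B10 was at 1.33 CPM with si-FOSL1 and may have passed the filter on low counts through its silenced samples alone. As AKR1C1, AKR1C2 and AKR1C3 resemble each other in sequence, their reads may be divided among them wrongly. In 1205Lu, AKR1B10, AKR1C2 and AKR1C3 had too few counts to be tested, AKR1C1 had -0.44 ± 0.437, OSGIN1 rose by 0.82 ± 0.0555 and EPHX1 by 0.32 ± 0.0608. AKR1A1 fell in A375 (-0.36 ± 0.0800) and in 1205Lu (-0.45 ± 0.156). The largest edgeR adjusted p of these called genes was 9.0e-04 in A375, for AKR1B10, and 0.025 in 1205Lu, for AKR1A1, whose 1205Lu call was lost without si-NT replicate 1 or 3 (0.07 and 0.08) or si-FOSL1 replicate 2 or 3 (0.067 and 0.13).

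Among 14 tested genes of heme and iron, 9 rose and 1 fell in A375 (median log2 fold change 0.23), and 4 rose and 2 fell in 1205Lu (median 0.05). FTL, the ferritin light chain, which has many processed copies in the genome, rose from 2291 ± 8.90 to 4105 ± 100.4 CPM (SD, n = 3) in A375 and from 2144 ± 74.7 to 3221 ± 99.0 CPM (SD, n = 3) in 1205Lu. BLVRB, biliverdin reductase B, rose in A375 (0.48 ± 0.0774, log2, SE) and fell in 1205Lu (-0.36 ± 0.0734). The heme transporter SLC48A1 rose by 0.59 ± 0.0570 in A375 and by 0.58 ± 0.225 in 1205Lu, the latter at an edgeR adjusted p = 0.046 that was lost without any 1 of the 6 samples other than si-FOSL1 replicate 3 (0.065 to 0.18), with the replicate block (0.067) and with no filter on low counts (0.098). IREB2, an iron regulatory protein, had the only fall in A375, -0.10 ± 0.0342 (edgeR adjusted p = 0.022), which was lost with upper-quartile normalization (0.059), with no filter on low counts (0.16) and without si-NT replicate 3 (0.088), si-FOSL1 replicate 1 (0.15) or si-FOSL1 replicate 3 (0.056). The edgeR adjusted p was 9.1e-24 and 2.2e-14 for FTL and 1.3e-05 and 4.5e-04 for BLVRB in A375 and 1205Lu.

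Of 10 tested superoxide and peroxide enzymes, 6 rose and none fell in A375 (median log2 fold change 0.375), and 3 rose and 1 fell of 9 in 1205Lu (median 0.06). PON2, a paraoxonase of intracellular membranes, rose by 0.84 ± 0.0461 in A375 and 0.40 ± 0.0387 in 1205Lu (log2, SE). NOX5, an NADPH oxidase at 1.29 CPM with si-NT, fell by 1.22 ± 0.373 in 1205Lu (edgeR adjusted p = 0.013) and had 0.46 ± 0.363 in A375, and the 1205Lu call was lost without si-NT replicate 1 (0.057) or si-FOSL1 replicate 1 (0.059). Of the 14 genes of the amino acid stress response, in which ATF4 controls SLC7A11 too, 3 rose and 8 fell in A375 (median -0.35), and 8 rose and 3 fell in 1205Lu (median 0.38). TRIB3 (1.27 ± 0.0914) and ATF3 (1.21 ± 0.132) rose in 1205Lu, and their values in A375 were 0.07 ± 0.0574 and 0.28 ± 0.0999. ATF3 passed in A375 at an edgeR adjusted p = 0.025, which was lost without si-NT replicate 2 (0.11), si-FOSL1 replicate 2 (0.06) or si-FOSL1 replicate 3 (0.071), and with all 12 samples in 1 fit (0.053). SESN2 rose in both lines (0.49 ± 0.0868 and 0.58 ± 0.0580), and ASNS, asparagine synthetase, fell in both (-0.72 ± 0.0671 and -0.68 ± 0.0891). In the interaction test 9 of these 14 genes passed (background: 31.9%), each with a positive difference of 1205Lu minus A375, as did SLC7A11. Other lists also leaned to 1 side in that test. The regulators had 9 positive and 2 negative differences of 15, and the quinone and carbonyl list 1 positive and 10 negative of 19. The thioredoxin system had 5 and 5 of 20. The largest edgeR adjusted p of PON2, TRIB3, ATF3, SESN2 and ASNS where a rise or fall is stated, other than that of ATF3 in A375, was 4.8e-05.

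**Figure D3:**
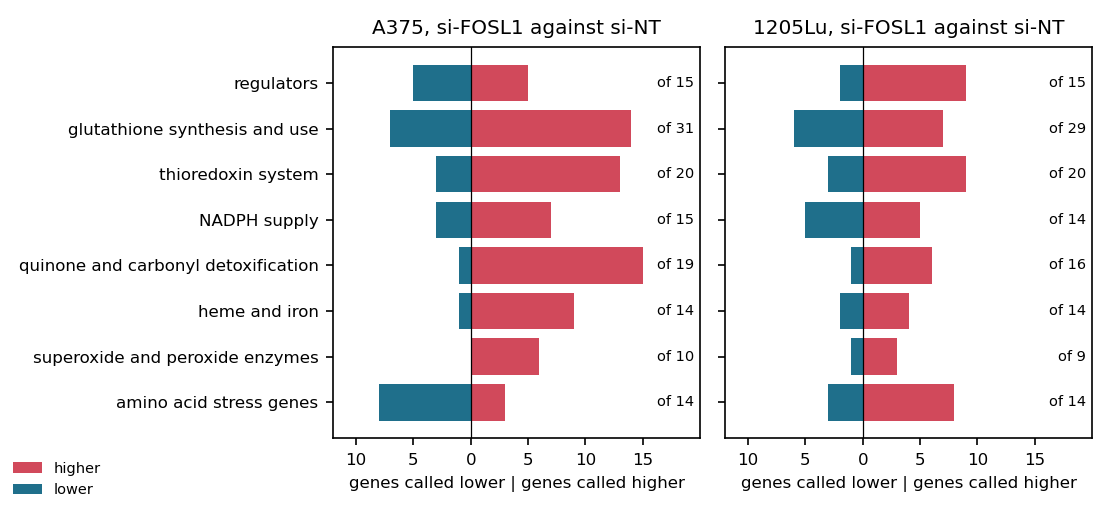
Number of genes called higher (red, to the right) and lower (blue, to the left) upon FRA1 silencing at an edgeR adjusted p under 0.05 in 8 gene lists, for A375 (left) and 1205Lu (right), with the number of tested genes at the right edge. The amino acid stress genes have 8 falls in A375 and 8 rises in 1205Lu, and the quinone and carbonyl list has 15 rises in A375.

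The FRA1 Cut&Run data were examined at the 52 consensus peaks near the 9 genes, of which 14 lay within 3 kb of an annotated start of a member and 29 within a member. TXNRD1 had 14 peaks, NFE2L2 12, SLC7A11 7, GCLC and GCLM 6 each, SRXN1 3, HMOX1 2, and KEAP1 and NQO1 1 each. NFE2L2 and GCLC have long annotated transcripts that reach far upstream, so that their windows take in neighbours such as AGPS. Enriched peaks were those with 10 counts or more in every FRA1 sample of the line and, in each, no less than 4 times the IgG value after 1 was added to it. In A375, 35 of the 52 peaks were enriched (67.3%, background of all peaks: 57.4%), and in 1205Lu 5 were (9.62%, background: 7.09%). With 1 IgG sample per line there is no p-value. The FRA1 totals in peaks were 8.74 to 13.85 times the IgG total in A375 and 1.86 to 2.85 times in 1205Lu, and with counts scaled to the same total none of the 52 peaks in A375 and 2 in 1205Lu passed, so that the counts rest on the unscaled yield of each library. The FRA1 samples 2 and 3 of 1205Lu did not differ beyond what sampling of reads gives (chi-square over its degrees of freedom 1.012, p = 0.187, and 1.07 to 1.64 for the other pairs of FRA1 samples within a line) and were counted as 1 sample in the means and tests.

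The motifs searched were TGACTCA, the site of AP-1, and TGACNNNGC, the core of the antioxidant response element, on both strands and within 100 bp of the peak centre. TGACTCAGC holds both at once. TGACTCA lay in 15 of the 52 peaks (28.85%), beside 28.64% of all consensus peaks, and TGACNNNGC in 7 (13.5%), beside 10.45%. The matches below, each from a peak near a member, are printed 5′ to 3′ on the strand of the motif with the match in capitals, from GRCh38, and are shown as examples of either motif and of both, at promoter peaks and at peaks within or upstream of the genes. None is printed for KEAP1 or SRXN1.
NQO1, 0.45 kb upstream of the start, chr16:69726997-69727025, minus strand: gcagtcacagTGACTCAGCagaatctgag
HMOX1, 3.94 kb upstream, chr22:35377146-35377174, minus strand: gaggcactggTGACTCAGCaaaatctagc
HMOX1, 4.00 kb upstream, chr22:35377082-35377110, minus strand: ctcccaaacaTGACGCAGCagaaatgcag
GCLC, 3.15 kb upstream, chr6:53548239-53548267, plus strand: cgcctccccgTGACTCAGCgctttgtgcg
GCLM, 0.03 kb upstream, chr1:93909446-93909474, plus strand: tggaagacaaTGACTAAGCagaaatcgta
TXNRD1, intron, 3.98 kb downstream, chr12:104219750-104219778, plus strand: atgtgtttataTGACTCAtatggcaaaag
TXNRD1, intron, 65.27 kb downstream, chr12:104281032-104281060, minus strand: atggagaggtTGACTAAGCagttggatat
SLC7A11, intron, 6.53 kb downstream, chr4:138235809-138235837, minus strand: acagagtcaaaTGACTCAtttccttatat
GCLC, intron of the long transcript, 48.34 kb upstream, chr6:53593430-53593458, minus strand: ggttctctacaTGACTCAtgacatgtaca
NFE2L2, intron of the long transcript, 73.54 kb upstream, chr2:177338256-177338284, plus strand: ttagaatgctcTGACTCAtggattcttgg
The NQO1 sequence, the first HMOX1 sequence and the GCLC promoter sequence hold both motifs in 1 run of 9 bases. The second HMOX1, the GCLM and the second TXNRD1 sequence hold the antioxidant core without the AP-1 site, and the last 3 and the first TXNRD1 sequence hold the AP-1 site alone. Peaks with both motifs made up 4 of the 52, beside 4.33% of all consensus peaks.

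The highest occupancy near any of the 9 genes was in an intron of TXNRD1, at chr12:104218881-104220686, whose centre lies 4.00 kb from the start and 19 bases from the TGACTCA printed above. FRA1 counts there were 1253, 1892 and 1577 in A375, against 40 with IgG, and 146, 285 and 228 in 1205Lu, against 12. Its mean count ranked 19 among 54563 peaks in A375 and 148 in 1205Lu. The peak over the downstream promoter of TXNRD1, 70.92 kb from the start (chr12:104286034-104287367), had 530, 821 and 638 counts in A375 against 32 with IgG, and 55, 95 and 91 in 1205Lu against 10, and its centre lacks both motifs. Relative to the other peaks of each line, neither passed the test between the lines, with log2 values of -0.22 ± 0.221 and -0.39 ± 0.208 (1205Lu over A375, SE, edgeR adjusted p = 0.41 and 0.12). For the first of them the value was 0.27 without 1205Lu FRA1 replicate 1, so that its direction rests on that sample. That fit leaves 1 summed sample of 1205Lu. With totals in peaks without TMM both passed (-0.36 and -0.54, edgeR adjusted p = 0.0026 and 0.00029). The second also passed without 1205Lu FRA1 replicate 2 (0.036) and with all 6 FRA1 samples kept apart (0.049). The intronic peak at 65.35 kb, with the antioxidant core, had 207, 314 and 268 counts in A375 against 20 with IgG and 15, 24 and 32 in 1205Lu against 11.

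The single peak near NQO1, over its promoter at chr16:69726226-69727721, had 162, 208 and 218 FRA1 counts in A375 against 13 with IgG. In 1205Lu it had 21, 54 and 33 against 19, so that the lowest FRA1 sample was about at the level of IgG and the peak was not enriched there. The single peak near KEAP1, 0.89 kb downstream of the start (chr19:10502099-10502827), had 67, 117 and 96 counts in A375 against 12, and 10, 5 and 6 in 1205Lu against 7. Neither TGACTCA nor TGACNNNGC lay within 100 bp of its centre. SRXN1 had its strongest peak at the promoter (chr20:652099-653780), with 84, 128 and 94 counts in A375 against 16 with IgG and 38, 44 and 50 in 1205Lu against 12. By the rule this SRXN1 peak was enriched in A375 alone.

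Near the glutathione synthesis genes, the peaks at the canonical starts were weak. The GCLC peak 0.23 kb from the start had 18, 49 and 41 counts in A375 against 15 with IgG, and the peak with both motifs 3.13 kb upstream (chr6:53547936-53548527), at another annotated start, had 54, 54 and 56 against 16. The GCLM promoter peak (chr1:93908913-93909939) had 29, 45 and 32 counts in A375 against 12 and 10, 16 and 8 in 1205Lu against 12. None of these 3 was enriched by the rule in either line. The strongest GCLC peak, 48.29 kb upstream in the long transcript (chr6:53592867-53593907), had 196, 303 and 243 counts in A375 against 11, and 6, 6 and 4 in 1205Lu against 6. The promoter peak at the far end of the long GCLC transcript, 70.76 kb upstream, had 101, 123 and 104 in A375 against 6 and 7, 4 and 5 in 1205Lu against 5. The other GCLM peaks lay in or near BCAR3 and DNTTIP2. The highest of these was the peak 30.63 kb downstream of the GCLM start in A375 (58, 110 and 81 counts against 10) and the one 63.37 kb downstream in 1205Lu (24, 34 and 46 against 11).

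SLC7A11 had its strongest peak in an intron 6.48 kb from the start (chr4:138235417-138236322), with 99, 183 and 114 counts in A375 against 9 with IgG and 19, 28 and 36 in 1205Lu against 2, enriched in both lines. Its promoter peak (chr4:138241797-138243059) had 37, 121 and 77 counts in A375 against 5, and 5, 2 and 0 in 1205Lu against 6. The HMOX1 peak 4.02 kb upstream, which holds 2 antioxidant cores, had 25, 32 and 28 counts in A375 against 5 with IgG and 6, 6 and 5 in 1205Lu against 5. The other HMOX1 peak, 16.69 kb upstream, had 17, 20 and 22 against 4 and 8, 1 and 8 against 6. NFE2L2 had its strongest peak in 1205Lu over an upstream start 73.49 kb before the canonical one (chr2:177337731-177338701), with 28, 50 and 39 counts against 5, and 83, 131 and 108 in A375 against 10. Near its canonical start, the peak at 0.90 kb had 23, 34 and 33 in A375 against 8 and 8, 12 and 12 in 1205Lu against 9, and in A375 the highest peak of its window, 96.34 kb downstream and nearer to HNRNPA3, had 152, 247 and 173 against 8. The remaining promoter peaks were that shared with AGPS, 128.13 kb upstream of NFE2L2, with 16, 21 and 25 in A375 against 2 and 4, 7 and 11 in 1205Lu against 8, and that 72.80 kb from the TXNRD1 start, with 18, 26 and 31 against 6 and 3, 5 and 2 against 5.

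The enriched peaks with a motif that remain were all enriched in A375 alone by the rule. They were the peaks 92.14 kb downstream of the NFE2L2 start (90, 115 and 87 counts in A375 against 5 with IgG), 114.45 kb upstream of GCLC within KLHL31 (73, 120 and 92 against 5) and 41.66 kb upstream of TXNRD1 (13, 28 and 17 against 2). Near SLC7A11 they were those 50.18 kb downstream (13, 21 and 19 against 2), 17.55 kb upstream (21, 52 and 41 against 4) and 33.88 kb upstream (19, 34 and 24 against 3). In 1205Lu the highest FRA1 count in any sample of these 6 peaks was 18. The only peak enriched in 1205Lu but not in A375 lay 161.61 kb downstream of the TXNRD1 start, beyond the gene, with 20, 35 and 28 counts in 1205Lu against 1 and 13, 21 and 14 in A375 against 6.

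**Figure D4:**
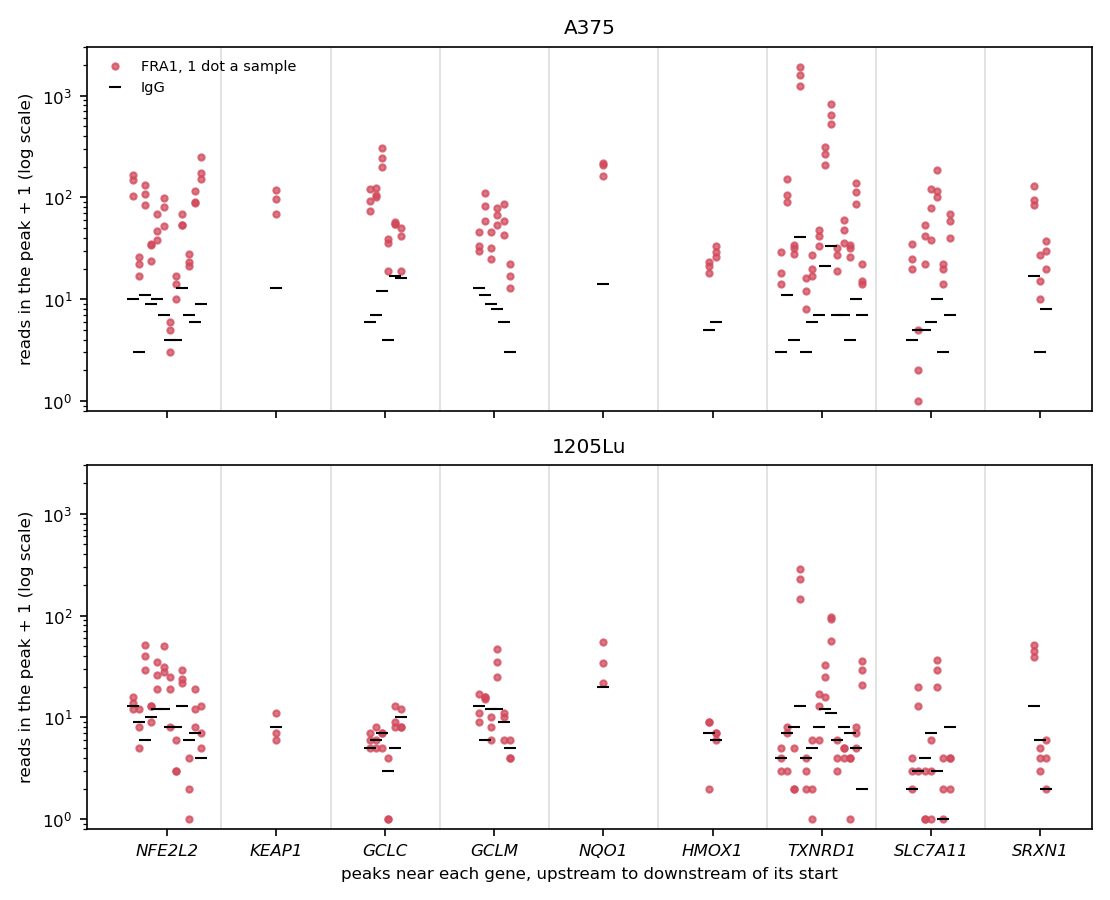
FRA1 and IgG read counts plus 1 (log axis) in the 52 peaks near the 9 genes in A375 (top) and 1205Lu (bottom), ordered within each gene from upstream to downstream of its start. Red dots are single FRA1 samples and black bars the IgG sample of the line. The TXNRD1 peak with 1253, 1892 and 1577 counts in A375 stands above the others in both lines, and most peaks in 1205Lu lie near IgG.

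In the test of FRA1 counts between the lines, 13 of the 52 peaks were higher in 1205Lu (background of 53300 tested peaks: 24.3%) and 13 lower (background: 29.0%). These directions hold on TMM-scaled counts, relative to the bulk of the peaks, whose median was -0.24 on the log2 scale. With DESeq2 12 were higher and 9 lower (all peaks: 12647 and 9902, beside 12947 and 15458 in the main test), and with totals in peaks without TMM 12 and 18 (all peaks: 11787 and 18162). With every library given the same size none was higher and 49 were lower (all peaks: 2808 and 46198), over a median of all peaks of -2.99. The peaks 24.84 kb downstream of the NFE2L2 start and 27.0 kb upstream of that of SLC7A11 had no value in that setting, which therefore does not cover them. The peaks near NFE2L2 held 7 of the 13 higher ones, among them the upstream start with 1.23 ± 0.199 (log2 1205Lu over A375, SE, edgeR adjusted p = 1.1e-05), which was -1.54 with every library at the same size. That upstream start was the only peak near NFE2L2 enriched over IgG in 1205Lu. Of the other higher ones, that at 22.39 kb had 27, 49 and 30 counts against 11, and that at 0.90 kb 8, 12 and 12 against 9. Those 52.05 kb downstream and 128.13 kb upstream touched starts of HNRNPA3 and of AGPS. The largest values of the 52 peaks rested on few counts, and neither peak was enriched over IgG in either line. The NFE2L2 peak at 24.84 kb (4.75 ± 0.485, adjusted p = 9.3e-09) had 7, 18 and 24 counts in 1205Lu against 7 and 2, 5 and 4 in A375. The SLC7A11 peak 27.0 kb upstream (5.20 ± 0.746, adjusted p = 2.0e-06) had 2, 12 and 19 in 1205Lu against 2 and 0, 1 and 4 in A375. The SRXN1 promoter peak was also higher, at 1.49 ± 0.189 (adjusted p = 3.0e-07, but -1.25 with every library at the same size), as was that of GCLM at 1.07 ± 0.308 (adjusted p = 0.0051, and -1.65 with the same size), where FRA1 had 10, 16 and 8 counts in 1205Lu against 12 with IgG. Neither of these promoter peaks was enriched over IgG in 1205Lu. Lower in 1205Lu were the GCLC peak 48.29 kb upstream (-2.81 ± 0.298, adjusted p = 1.7e-08), the SLC7A11 promoter peak (-2.31 ± 0.555, adjusted p = 0.0011, and -3.37 without 1205Lu FRA1 replicate 1 and -1.78 without replicate 3) and the KEAP1 peak (-1.004 ± 0.320, adjusted p = 0.010). The KEAP1 call was lost with DESeq2 (0.14) and, like that of the GCLM promoter peak (0.11), without 1205Lu FRA1 replicate 2 (0.064). The NQO1 promoter peak (0.22 ± 0.225, adjusted p = 0.44) and the SLC7A11 intron peak (0.45 ± 0.222, adjusted p = 0.092) did not pass, and were -2.56 and -2.33 with every library at the same size. Without 1205Lu FRA1 replicate 1, which leaves 1 summed sample of 1205Lu, the values were 0.71 and 0.85. The yield of the libraries and occupancy over all peaks cannot be told apart in this comparison.

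In the RefSeq promoter sequences of GRCh38.p14, from 250 bases before to 50 after each start, 7 of the 9 genes were matched with 10 promoters, and HMOX1 and SLC7A11 were not matched. None of these 10 held TGACTCA (4.95% of all 35116 promoters did), and TGACNNNGC lay in 4 of them, those of GCLM, both of TXNRD1 and 1 of 2 of KEAP1 (13.35% of all promoters). The NQO1 match printed above lies 0.45 kb upstream and thus outside that window. A TGACTCA 0.27 kb upstream of the SRXN1 start, within its promoter peak, also lies outside it.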

How the data were processed

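RNA-seq covered 12 samples and Cut&Run 8 samples of A375 and 1205Lu cells, grouped by the labels. The authors trimmed adapters with cutadapt 1.8.1, aligned RNA-seq reads to GRCh38 with STAR 2.7.7a and deposited expected counts per gene from RSEM 1.3.0 on Gencode v30, as whole numbers. For Cut&Run the authors aligned reads with Bowtie2 2.4.1, called peaks with MACS2 2.1.1.20160309 and deposited raw read counts per consensus peak. Whether peaks were called per sample is not given in the sources used here. Library preparation was strand-specific, while the strand setting of RSEM is not given.

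Here, genes were tested with edgeR 4.0.16 (R 4.3.3): TMM, filterByExpr, quasi-likelihood F-test and Benjamini-Hochberg adjustment over all tested genes, with the 6 samples of a line for silencing, the 6 si-NT samples for the lines and all 12 samples for the interaction. Peaks between the lines were tested likewise on FRA1 counts. Confidence intervals are at 95%. The square root of the common dispersion was 4.51% in A375 and 4.20% in 1205Lu, and low counts such as those of HMOX1 limit the precision. FRA1 replicates 2 and 3 of 1205Lu differed by no more than sampling (over 10418 peaks, a chi-square of 1.01 for each degree of freedom, p = 0.187) and were summed as 1 sample. Gene bodies came from GENCODE v44. The edgeR fits were tested on simulated counts, while the steps that find peaks and motifs and count lists were not.

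The 9 genes and all lists were chosen with earlier results of these data known. Genes named from a list were those called with an absolute log2 fold change over 1 and the called genes with the largest rise and fall in each line. Peaks named were promoter peaks, the highest peak of each gene in each line and enriched peaks with a motif, with some others beside the comparison of the lines. GGT1 and SOD2, with 2 rows each, and PGLS, with no row, were left out. Alternatives were DESeq2 1.42.0, other normalizations, filters, windows and limits, a replicate block and leaving out each sample.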

Additional observations from a re-analysis of the deposited data

Results flagged for a closer look

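The following genes had a response to FRA1 silencing that differed between the lines in edgeR's interaction test, given as the log2 response in 1205Lu minus that in A375. Of the 9 genes these were NFE2L2 (0.13), GCLM (0.61), NQO1 (-0.46), TXNRD1 (0.59), SLC7A11 (0.60) and SRXN1 (0.37). Among the regulators they were NFE2L1 (-0.49), MAFF (1.45), BACH2 (1.07) and DPP3 (-0.30). In glutathione use, the thioredoxin system and NADPH supply they were GPX8 (-0.27), SLC3A2 (0.84), SESN3 (-0.49), IDH1 (-0.58), MTHFD2 (0.32) and MTHFD1 (-0.30). In quinone and carbonyl detoxification they were AKR1C1 (-2.14), AKR1C2 (-1.95), EPHX1 (-0.78) and OSGIN1 (-0.49). AKR1C2, too scarce in 1205Lu for the test within that line, was -2.93 without 1205Lu si-FOSL1 replicate 1 and -1.33 without replicate 2. AKR1B10 missed the threshold (-1.93, edgeR adjusted p = 0.052) and passed it with DESeq2 (0.034), with upper-quartile normalization (0.046) and without 1 of 3 samples (0.023 to 0.048). AKR1B10 was also too scarce for the test within 1205Lu and may have passed the filter through its silenced A375 samples alone. Its values therefore cannot tell whether the lines differ in response. In the other lists they were FTL (-0.25), BLVRB (-0.83), PON2 (-0.42), NOX5 (-1.66), TRIB3 (1.21) and ATF3 (0.94). FOSL1 itself was lowered less in 1205Lu (difference 1.19), and the part of that in these values was not tested. The edgeR calls of DPP3, GPX8, AKR1C2 and OSGIN1 were each lost without 1 of several samples, with adjusted p up to 0.074, 0.15, 0.099 and 0.19. Those of GPX8, NOX5 and OSGIN1 were lost with no filter on low counts (0.057, 0.066 and 0.056).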

How the results depend on the processing

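Over the 9 genes, 429 of 441 alternative values kept their side of the threshold, 11 lost and 1 gained a call, and no called value changed direction. The lost and gained calls, for HMOX1, SLC7A11, NFE2L2 and GCLC, are given beside their results. Values near 0 that were not called could change sign. SRXN1 in A375, for example, was -0.04 without si-NT replicate 2. With the added limit on the fold change 0 genes were called in A375, 0 in 1205Lu and 3 between the lines. Leaving out 1 sample gave 7 to 8 genes in A375, 8 to 8 in 1205Lu, 5 to 7 in the interaction and 8 to 8 between the lines. It gave 35 to 38 enriched peaks in A375, 5 to 6 in 1205Lu and 23 to 24 peaks that differed. The last range leaves out the fit without 1205Lu FRA1 replicate 1, which has 1 summed sample of that line. Enriched peaks in A375 numbered 13 at 8 times IgG, 0 with scaled counts and 23 within 10 kb, and in 1205Lu 9 at 2 times, 2 at 8 times and 2 with scaled counts. TGACTCA anywhere in the peak gave 30 of the 52 peaks (all peaks: 57.7%) and TGACNNNGC 25 (all peaks: 31.19%), since more bases are searched.

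With every library given the same size 49 peaks differed, all lower in 1205Lu, as that setting keeps the difference in totals. That setting gave no value for the NFE2L2 peak at 24.84 kb and the SLC7A11 peak at 27.0 kb. It reversed the NFE2L2 peaks at 0.90 and 73.49 kb (-1.52 and -1.54), the GCLC peak at 0.23 kb (-2.05), the GCLM peaks at 63.37, 30.63 and 0.00 kb (-0.995, -2.49 and -1.65), the NQO1 peak (-2.56), the HMOX1 peaks at 16.69 and 4.02 kb (-1.73 and -2.29), the SLC7A11 peak at 6.48 kb (-2.33) and the SRXN1 promoter peak (-1.25). The TXNRD1 peak at 4.00 kb ranged from -0.34 to 0.27 when 1 sample was left out, and the cause was not tested.

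The replicate block, with numbers that pair nothing in the labels, left 8, 8, 6 and 8 of the 9 genes called in A375, 1205Lu, the interaction and between the lines, and 24 of the peaks with all 6 FRA1 samples apart. Deviations of samples with the same number correlated at 0.14, 0.08 and 0.05 in A375 and at -0.24, -0.08 and -0.16 in 1205Lu. Over all genes the block moved the calls from 8593 to 8614 in A375 and from 6941 to 6746 in 1205Lu. Among named list genes it ended the SLC48A1 call alone. Depth limits HMOX1 and most 1205Lu peaks, where counts were near IgG.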
